A study of Mus musculus with 20 samples.

Results

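The insulin-like growth factor (IGF) system was followed in newborn mouse brain through 10 genes, of 18193 genes measured: the ligands Igf1 and Igf2, the receptors Igf1r and Igf2r, and the binding proteins Igfbp2, Igfbp3, Igfbp4, Igfbp5, Igfbp6 and Igfbp7. They were chosen by gene symbol, as every probe set (a group of short probes to 1 transcript) that the platform annotation gives to one of these symbols alone. This gave 28 probe sets, with several for 8 of the genes and 1 each for Igfbp2 and Igfbp6. 1 further probe set is annotated to Igf2r together with Airn and was not used. RNA of whole brains at postnatal day 3 was hybridised to 20 Affymetrix mouse genome arrays, 10 of WT and 10 of homozygous HDAC4 KO pups, which lack the class IIa histone deacetylase HDAC4. By the labels each genotype had 5 males and 5 females. All animals were untreated and of a mixed background. They came from a colony kept by crossing heterozygous males to B6CBAF1/OlaHsd females, with homozygotes made by intercrossing. The pups were homozygous in all tissues, so effects that arise in the brain and effects from other organs cannot be told apart.

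IGF1 and IGF2 are small secreted proteins that signal through the receptor tyrosine kinase IGF1R, which acts through insulin receptor substrates on the PI3K, AKT, FOXO and mTOR branch and drives growth, survival and myelination in the developing brain. IGF2R, which is also the mannose 6-phosphate receptor, takes IGF2 up and delivers it to lysosomes. The binding proteins hold the ligands outside cells and can block them or bring them to their receptors. Igf2 and Igf2r are imprinted in many mouse tissues, and these arrays do not tell their alleles apart. In brain the choroid plexus and the meninges are the main sources of Igf2.

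Each value below is a deposited log2 signal of 1 probe set. Probe sets share no scale, so signals are compared between arrays and not between genes. A probe set was called changed at an adjusted p under 0.05 (limma, Benjamini-Hochberg over 45037 probe sets). Precision is set by the number of arrays. The labels give no litter or batch, and p-values measure the spread between these 20 brains. For a gene with several probe sets, the brightest is the one with the highest mean over the 20 arrays, and a probe set is called dim here when it lay above its array's median in fewer than 10 arrays.

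The genotype labels were checked first on Hdac4, whose brightest probe set was 7.92 ± 0.16 in WT and 6.53 ± 0.36 in HDAC4 KO brains (SD, n = 10 each), a change of −1.39 on the log2 scale (limma, adjusted p = 6.28e-07). WT arrays ran from 7.54 to 8.08 and HDAC4 KO arrays from 6.02 to 7.43, so the groups came close without overlap. WT replicate 8 and HDAC4 KO replicate 10 were the arrays whose signals lay between the genotypes. Without these 2 arrays the adjusted p (limma) was 0.0438 for Igfbp6 and 0.0426 for Igfbp2, the member genes called below. Array medians lay between 6.26 and 6.32. By the sex-linked gene Xist, 3 arrays (WT replicates 5 and 9 and HDAC4 KO replicate 10) went against the labelled sex. In WT replicates 5 and 9 the sex-linked gene Kdm5d went against it too. HDAC4 KO replicate 10, labelled male, had high log2 signals of both (Xist 12.27, Kdm5d 6.88). Neuronal markers fitted the tissue label, with a mean log2 signal of 8 genes between 12.8 and 12.9 in every array.

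Of the 28 probe sets, 1 was higher (Igfbp6) and 1 was lower (Igfbp2) in HDAC4 KO brains. Called higher were thus 3.57% of the member probe sets, against 1.05% of all probe sets, and called lower 3.57% against 1.01%. Taking only the brightest probe set per gene, 1.45% of all 18193 genes were higher and 0.517% were lower. The other 26 member probe sets had adjusted p-values from 0.0800 to 0.975. At an unadjusted p under 0.05 there were 5 member probe sets, or 17.9%, against 18% of all probe sets, which is the background share. No member probe set separated the genotypes without overlap, as 0.0777% of all probe sets did. The median log2 fold change was 0.01 over the members and 0.00 over all probe sets, and the median size of the change, without its sign, was 0.0659 and 0.0520.

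The promoters of these called genes are shown for reference, as RefSeq gives them on GRCm38.p6: the 250 bases before the annotated start, 5′ to 3′ on the gene's strand. Capitals mark matches on either strand. The TATA box was searched as TATAAA, the GC box as GGGCGG and the E-box, which reads the same on both strands, as CACGTG.
Igfbp6, chr15:102143936-102144185, plus strand: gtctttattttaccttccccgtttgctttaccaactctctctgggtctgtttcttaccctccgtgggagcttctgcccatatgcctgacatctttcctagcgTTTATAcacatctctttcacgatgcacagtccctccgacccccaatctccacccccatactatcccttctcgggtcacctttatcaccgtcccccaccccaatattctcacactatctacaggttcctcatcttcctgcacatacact
Igfbp2, chr1:72824230-72824479, plus strand: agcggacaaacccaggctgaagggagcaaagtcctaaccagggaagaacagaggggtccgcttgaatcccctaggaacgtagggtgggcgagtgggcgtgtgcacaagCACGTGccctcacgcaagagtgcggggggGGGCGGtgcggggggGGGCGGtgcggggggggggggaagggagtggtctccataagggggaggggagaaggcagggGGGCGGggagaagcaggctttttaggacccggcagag
The Igfbp6 window held 1 TATA match, on the opposite strand, no GC box and no E-box, and 49.6% of its bases were G or C, against a median of 52.4% over 32841 windows of all genes. The Igfbp2 window held 3 GC boxes and 1 E-box with a GC content of 67.2%, and a second annotated start of Igfbp2 held none of these motifs. Such matches are common: 12.4% of all windows had TATAAA, 32.7% GGGCGG and 6.02% CACGTG. Windows were found for all 10 members, 14 in all, and none held the cyclic AMP element TGACGTCA (1.55% of all windows) or the consensus of MEF2 (2.92%), the factor family that HDAC4 is best known to bind. A match or its absence describes these letters and says nothing of binding.

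Igfbp6, which encodes a binding protein that prefers IGF2 to IGF1, was the member with the highest log2 fold change. In the WT arrays its log2 signal was 5.93, 5.12, 5.63, 5.55, 5.43, 5.71, 5.47, 6.14, 5.99 and 5.69 in replicates 1 to 10. In the HDAC4 KO arrays it was 5.52, 6.01, 6.45, 6.48, 6.37, 6.05, 6.12, 6.20, 6.22 and 6.21. The groups overlapped: 6 HDAC4 KO arrays stood above every WT array, while HDAC4 KO replicates 1, 2, 6 and 7 lay within the WT range. Of these, replicate 1 lay far under the other 9 HDAC4 KO arrays. The means were 5.67 ± 0.30 in WT and 6.16 ± 0.28 in HDAC4 KO brains (SD, n = 10 each), a change of 0.50 ± 0.12 on the log2 scale (SE, limma, adjusted p = 0.0347), or 1.41-fold. The probe set is dim, above the array median in 3 of 20 arrays. Igfbp6 was also a gene that the study took from these arrays for PCR, which is not analysed here. In bulk tissue, more cells that express a gene and more of its RNA per cell cannot be told apart.

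The Igfbp6 call stood close to the threshold. The study's methods name a two-tailed t-test, under which the adjusted p was 0.0505. With single arrays left out it ran from 0.0152 (without HDAC4 KO replicate 1) to 0.0667 (without WT replicate 5), and the call was lost without any one of WT replicates 2, 3, 4, 5, 6 or 7 or HDAC4 KO replicates 5, 7, 8, 9 or 10. Without the 3 arrays that went against their sex label the log2 fold change was 0.50 (adjusted p = 0.0718). The change was of like size in both labelled sexes, 0.52 in males and 0.48 in females.

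Igfbp2, an abundant binding protein of fetal and newborn brain, was lower in HDAC4 KO brains. Its log2 signal in WT replicates 1 to 10 was 11.59, 11.71, 11.81, 11.55, 11.58, 11.64, 11.66, 11.66, 11.72 and 11.61. In HDAC4 KO replicates 1 to 10 it was 11.44, 11.52, 11.38, 11.45, 11.37, 11.49, 11.44, 11.23, 11.62 and 11.56. Thus 8 of 10 HDAC4 KO arrays lay below every WT array, and only HDAC4 KO replicates 9 and 10 reached into the WT range. The means were 11.65 ± 0.08 and 11.45 ± 0.11 (SD, n = 10 each), a change of −0.20 ± 0.04 on the log2 scale (SE, limma, adjusted p = 0.0221), so the signal fell by 13.0%. The call held in each of the 20 fits that left out 1 array, with log2 fold changes from −0.22 to −0.18, and without the 3 arrays above (adjusted p = 0.0416). By the labels of all 20 arrays the difference was −0.17 in males and −0.23 in females. With those 3 arrays left out, the change in females minus that in males was −0.01 (limma interaction, adjusted p = 0.982).

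The choroid plexus and the meninges are known sources of Igfbp2, and the values of their markers are given beside it. Of 9 measured choroid plexus markers, 4 of them dim, 8 had a negative log2 fold change and 2 were lower: Ttr, the thyroid hormone carrier of that tissue (−0.14, adjusted p = 0.0420), and Sostdc1, a secreted BMP and Wnt antagonist (−0.30, adjusted p = 0.0478). The mean signal of that list ran from 7.22 to 7.51 in WT and from 6.72 to 7.39 in HDAC4 KO arrays, a difference of −0.21. Kcne2, its most variable marker, had an SD of 1.27 in HDAC4 KO arrays. The 12 meningeal and fibroblast markers gave 0 calls, and their mean ran from 8.42 to 8.78 in WT and from 8.41 to 8.65 in HDAC4 KO arrays, a difference of −0.06. With the choroid plexus list as a covariate the log2 fold change of Igfbp2 was −0.14 (adjusted p = 0.246), and with the meningeal list it was −0.17 (adjusted p = 0.0629). With the same covariates Igfbp6 had log2 fold changes of 0.46 (adjusted p = 0.223) and 0.50 (adjusted p = 0.0748). With Kcne2 left out of the choroid plexus list, a choice made after seeing the data, Igfbp2 had −0.14 (adjusted p = 0.272) and Igfbp6 had 0.35 (adjusted p = 0.345). Calls over all probe sets dropped from 927 to 18 and 148 with these covariates. The part of these tissues in the change of Igfbp2 was not tested.

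Values for RNA quality and for other cell types are given beside these calls. The difference between 3′ and 5′ probes of actin and Gapdh controls, a measure of RNA integrity, was 0.19 ± 0.03 in WT and 0.22 ± 0.03 in HDAC4 KO arrays (SD, n = 10 each). With it as a covariate the change of Igfbp6 was 0.46 (adjusted p = 0.135) and that of Igfbp2 was −0.19 (adjusted p = 0.0982), while 43 probe sets in all were called. Microglial markers had a list mean higher by 0.11 in HDAC4 KO arrays, from 7.12 to 7.43 in WT and from 7.25 to 7.57 in HDAC4 KO, with 1 of 7 called (Tmem119, 0.26, adjusted p = 0.0179). The 12 endothelial and mural markers differed by −0.03 and the 9 markers of astrocytes and radial glia by 0.00, with no call. Of 8 neuronal markers 1 was lower, Nefl, a neurofilament subunit (−0.28, adjusted p = 0.0427), and the mean of that list differed by 0.00. Their part in the changes of the members was not tested.

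**Figure D1:**
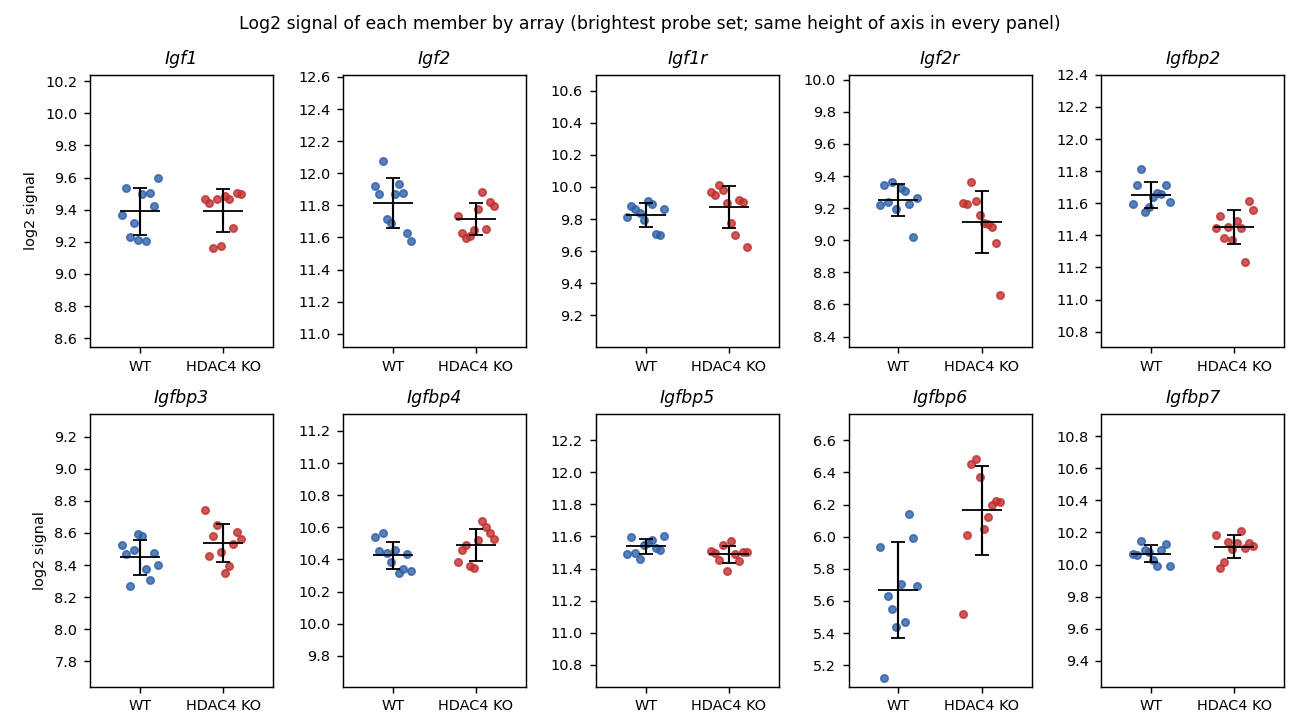
Log2 signal of the brightest probe set of each of the 10 members in every array, WT in blue and HDAC4 KO in red, replicates 1 to 10 from left to right within a group, with mean and SD as black bars. All vertical axes span the same number of log2 units and none starts at 0; Igfbp6 has the widest scatter and the largest shift, and 8 of 10 HDAC4 KO arrays of Igfbp2 lie under every WT array.

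The ligands did not pass the test. Igf1 was measured by 4 probe sets. The brightest ran in WT from 9.20 through a median of 9.40 to 9.60, and in HDAC4 KO from 9.16 through 9.46 to 9.50, so the groups covered nearly the same range. Its means were 9.39 ± 0.14 and 9.39 ± 0.13 (SD, n = 10 each), a change of 0.01 ± 0.06 on the log2 scale (SE, limma, adjusted p = 0.975). The other Igf1 probe sets had log2 fold changes of −0.04, −0.08 and −0.10, with adjusted p-values from 0.580 to 0.807.

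Igf2 had lower mean signals in HDAC4 KO brains at both of its probe sets, and neither passed. At the brightest, WT arrays ran from 11.58 through a median of 11.87 to 12.08 and HDAC4 KO arrays from 11.59 through 11.69 to 11.88. The means were 11.82 ± 0.16 and 11.71 ± 0.10 (SD, n = 10 each), a change of −0.10 ± 0.06 on the log2 scale (SE, limma, adjusted p = 0.356). The WT arrays fell in a wide band, with replicates 9 and 10 as low as the lowest HDAC4 KO arrays. The second probe set, 1415931_at, is dim, above the array median in 0 of 20 arrays. There WT arrays ran from 4.51 through 5.14 to 5.33 and HDAC4 KO arrays from 4.65 through 4.78 to 5.01, so that 7 WT arrays stood above every HDAC4 KO array and WT replicate 10 under all of them. Its change was −0.27 ± 0.08 on the log2 scale (SE, limma, adjusted p = 0.0857), and without WT replicate 10 it was −0.33 (adjusted p = 0.0139).

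That WT array also stood apart in pituitary hormones, whose 5 measured genes, 4 of them dim, had a mean log2 signal of 6.04 in WT replicate 10. The next WT array, replicate 3, had 5.09, and the highest HDAC4 KO array had 5.08. The part of this array's tissue content in the Igf2 values was not tested.

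The receptors did not pass the test either, and the probe sets of Igf2r differed in sign. For Igf1r, the kinase that carries the IGF signal, the brightest of 5 probe sets ran from 9.70 through 9.85 to 9.92 in WT and from 9.63 through 9.91 to 10.01 in HDAC4 KO arrays. HDAC4 KO arrays lay on both sides of the WT range, 5 above it and 2 below. The change was 0.05 ± 0.05 on the log2 scale (SE, limma, adjusted p = 0.657), and the other 4 probe sets had values from −0.02 to 0.10 with adjusted p-values from 0.565 to 0.938.

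For Igf2r, the clearance receptor of IGF2, the brightest probe set (1424112_at) ran from 9.02 through 9.25 to 9.36 in WT and from 8.66 through 9.13 to 9.36 in HDAC4 KO arrays, with HDAC4 KO replicate 10 the lowest of all. The change was −0.13 ± 0.07 on the log2 scale (SE, limma, adjusted p = 0.284). The second (1424111_at) ran from 7.74 through 7.92 to 8.04 in WT and from 7.88 through 8.04 to 8.20 in HDAC4 KO arrays, where 5 HDAC4 KO arrays stood above every WT array. Its change was 0.13 ± 0.04 on the log2 scale (SE, limma, adjusted p = 0.0889). Across the 20 arrays these Igf2r probe sets were only loosely related after removal of the genotype means (Pearson r = 0.20, a description of one transcript's probes), so no direction is given for Igf2r.

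Among the other binding proteins, Igfbp3 (the main IGF carrier of serum), Igfbp4 (an inhibitor of IGF action that the protease PAPP-A cleaves), Igfbp5 (which also binds the extracellular matrix) and Igfbp7 (a low-affinity relative made by blood vessels) had no called probe set. At its brightest probe set Igfbp3 ran from 8.27 through 8.47 to 8.59 in WT and from 8.35 through 8.55 to 8.74 in HDAC4 KO arrays, a change of 0.09 ± 0.05 on the log2 scale (SE, limma, adjusted p = 0.377). Its second probe set had 0.07 (adjusted p = 0.308), and 3 and 4 HDAC4 KO arrays stood above all WT arrays at these probe sets.

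Igfbp4 had 6 probe sets, 5 of them with log2 fold changes from 0.01 to 0.07. At the brightest, WT arrays ran from 10.31 through 10.44 to 10.57 and HDAC4 KO arrays from 10.35 through 10.50 to 10.64 (adjusted p = 0.462 from limma). The sixth, 1421991_a_at, ran the other way, from 6.80 through 7.03 to 7.15 in WT and from 6.78 through 6.91 to 6.97 in HDAC4 KO arrays. There 8 WT arrays stood above every HDAC4 KO array, and the change was −0.12 ± 0.04 on the log2 scale (SE, limma, adjusted p = 0.0800). Without WT replicate 10 it was −0.15 (adjusted p = 0.0207). Across the 20 arrays this probe set had r = −0.01 with the brightest one after removal of the genotype means, while the other 4 had r from 0.70 to 0.87.

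Igfbp5 was the steadiest member, with a within-genotype SD of 0.0495 at its brightest probe set. WT arrays ran from 11.46 through 11.54 to 11.60 and HDAC4 KO arrays from 11.38 through 11.50 to 11.57, a change of −0.05 ± 0.03 on the log2 scale (SE, limma, adjusted p = 0.371). Its second probe set had −0.11 (adjusted p = 0.377), with r = 0.16 between the probe sets. Igfbp7 ran from 9.99 through 10.07 to 10.15 in WT and from 9.98 through 10.12 to 10.21 in HDAC4 KO arrays at its brightest probe set (0.04, SE 0.03, adjusted p = 0.498), and its other probe sets had 0.03 and 0.06.

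Within-genotype SDs of the brightest probe sets rose from 0.0495 (Igfbp5) and 0.0620 (Igfbp7) through 0.0948 (Igfbp2), 0.131 (Igf2), 0.139 (Igf1) and 0.154 (Igf2r) to 0.288 (Igfbp6), against a median of 0.121 over all probe sets. Igfbp2, whose change was the smaller of those that passed, thus scattered less than the median probe set, and Igfbp6 scattered more. That median covers probe sets of every signal level, and no comparison at like signal was made.

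**Figure D2:**
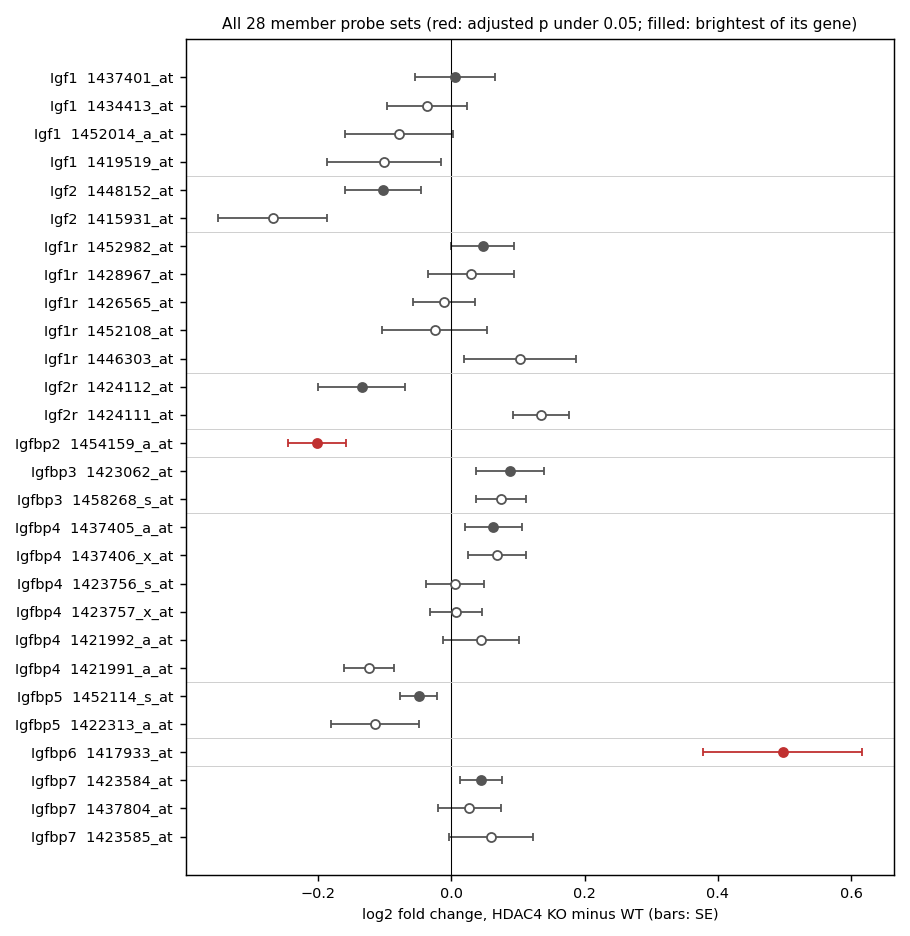
Log2 fold change (HDAC4 KO minus WT) with its SE for each of the 28 member probe sets, grouped by gene. Filled points mark the brightest probe set of a gene and red marks an adjusted p under 0.05, which holds for Igfbp2 (−0.20) and Igfbp6 (0.50); the Igf2r points lie on opposite sides of 0.

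Igfbp2 and Igfbp5 are neighbours on chromosome 1, with 0 protein-coding genes between them, and Hdac4 lies on the same chromosome with 180 protein-coding genes between it and Igfbp5 (RefSeq, GRCm38.p6). Of the 1066 genes of chromosome 1 with a brightest probe set, 0.75% were lower and 2.53% were higher in HDAC4 KO brains, against 0.517% and 1.45% of all genes. In a cross kept on a mixed background, alleles linked to the knock-out and the knock-out itself cannot be told apart. Of these neighbours Igfbp2 was lower and Igfbp5 had −0.05, and the difference between them was not tested.

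No member passed the test of a difference between the sexes in its response to genotype. The interaction of genotype with labelled sex gave 0 calls among members and 0% of all probe sets (limma, a fit of 4 groups). At an unadjusted p under 0.05 stood Igfbp4 1421991_a_at (−0.21 in males, −0.04 in females, p = 0.0186, adjusted p = 0.917) and Igfbp7 1437804_at (0.12 in males, −0.07 in females, p = 0.0470, adjusted p = 0.917). Without the 3 arrays whose Xist signal went against their label, no member passed the test between females and males after adjustment. The interaction then gave 0 calls too. Its unadjusted p (limma) was under 0.05 for Igf1r 1428967_at and Igf1r 1452982_at. The genotype change in females minus that in males was −0.24 for the first (limma interaction, p = 0.0331, adjusted p = 0.574). For the second it was −0.17 (p = 0.0453, adjusted p = 0.589).

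The other genes of the pathway were taken from lists drawn up by role, with earlier results of these data known. Of 59 genes, 54 were measured by a probe set of their own. By the brightest probe set 1 was higher and 0 were lower, against 1.45% and 0.517% of all genes. The one was Foxo3, a transcription factor that AKT keeps out of the nucleus. It had 8.73 ± 0.08 in WT and 8.89 ± 0.05 in HDAC4 KO brains (SD, n = 10 each). The change was 0.16 ± 0.03 on the log2 scale (SE, limma, adjusted p = 0.0181). The call was lost with the choroid plexus list (0.15, adjusted p = 0.169) or the 3′ minus 5′ signal (0.14, adjusted p = 0.0883) as a covariate, with a fold about as large. It was also lost when the mean of a gene's probe sets took the place of the brightest. At an unadjusted p under 0.05 there were 11 genes higher (20.4%) and 3 lower (5.56%), against 12.8% and 6.19% of all genes. Of the 54 values 35 were positive (64.8%) with a median of 0.03, against 57.2% of all genes with a median of 0.01.

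The PI3K to FOXO list held 16 measured genes, with 1 called. At an unadjusted p under 0.05 it had 7 higher and 2 lower (43.8% and 12.5%, against the 12.8% and 6.19% of all genes), and since the genes of a list are not independent and no test of the list was made, nothing particular to it is read from this. Beside Foxo3, the smallest p-values belonged to Foxo1, its close relative (0.14, adjusted p = 0.0896), and Inpp5d, a lipid phosphatase of blood cells and microglia that opposes PI3K (0.18, adjusted p = 0.121). Akt1, the kinase between PI3K and FOXO factors, had 0.07 (adjusted p = 0.147). The 10 measured genes of the mTOR branch gave no call. Eif4ebp1, a brake on translation that mTOR releases, had 0.15 (adjusted p = 0.0634), and Rptor, the scaffold of mTOR complex 1, had 0.10 (adjusted p = 0.123). Among 9 adaptors, Grb2, which links receptors to the Ras pathway, had 0.09 (adjusted p = 0.166), Irs2 had 0.10 (adjusted p = 0.352) and none was called.

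Nearer to the ligands there was no call either. Of 7 proteases and inhibitors that act on the binding proteins, Htra1, a secreted serine protease, had 0.13 (adjusted p = 0.414) and Pappa, whose product cleaves IGFBP4, had −0.08 (adjusted p = 0.507). Among 7 related receptors and ligands the smallest p-values belonged to Lrp1, a large endocytic receptor (0.09, adjusted p = 0.289), and Sorcs2, a sorting receptor (0.07, adjusted p = 0.343), while Insr, the insulin receptor, had 0.03 (adjusted p = 0.743). Of 2 measured mRNA-binding proteins of the Igf2bp family, Igf2bp1 had −0.14 (adjusted p = 0.176) at a probe set that is dim, and Igf2bp3 had 0.00 (adjusted p = 0.987). Of the 3 other binding proteins, Igfbpl1 had −0.11 (adjusted p = 0.467), and Igfals and Igfbp1 were dim.

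**Figure D3:**
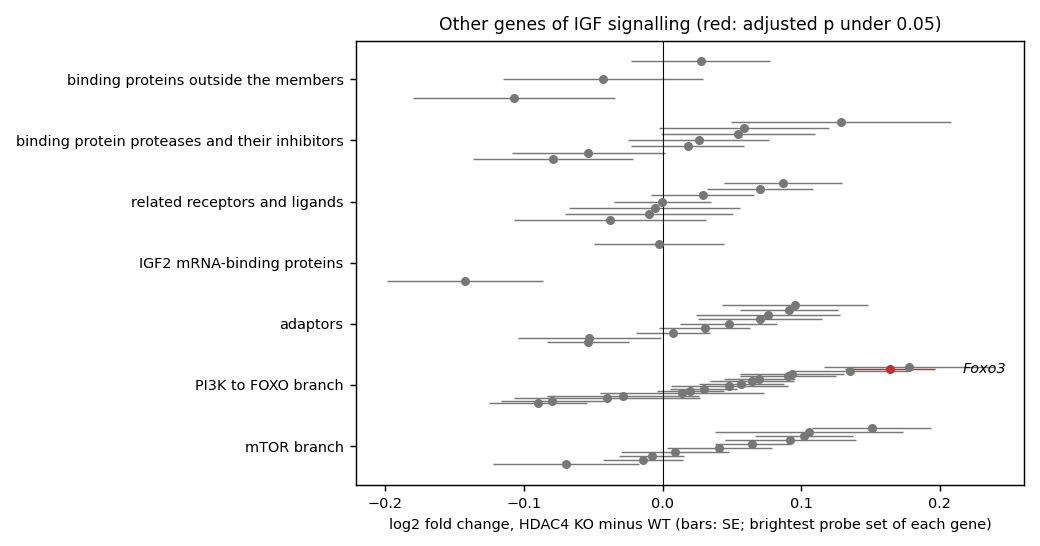
Log2 fold change (HDAC4 KO minus WT) with its SE for the brightest probe set of 54 other genes of IGF signalling, in 7 lists, each dot 1 gene. Foxo3 (0.16), in red, is the only gene with an adjusted p under 0.05, and 35 of 54 values are above 0.

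Co-variation of the members was measured on deviations from the genotype mean over 20 arrays, with the brightest probe set of each gene, as Pearson's r and Spearman's rho with two-sided permutation tests (100000 resamples, arrays permuted within genotype) adjusted over the 45 pairs. Values of r ran from −0.45 to 0.79 with a median of −0.05, and 21 pairs were positive. At an unadjusted p under 0.05 there were 4 pairs, and 1 pair passed after adjustment.

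The pair was Igf1r with Igf2r (r = 0.79, permutation p = 0.00019, adjusted p = 0.00855; rho = 0.76, adjusted p = 0.0162). It was alike within WT (r = 0.76) and within HDAC4 KO arrays (r = 0.80), and r was 0.73 without the 2 arrays farthest from the median. In HDAC4 KO replicate 10 both receptors were at their lowest, 9.63 for Igf1r and 8.66 for Igf2r. Without that array r was 0.66 (adjusted p = 0.154 by permutation), and without all 3 arrays that went against their sex label r was 0.58 (adjusted p = 0.223). The relation thus rested in part on an array whose sex-linked genes were mixed. The Igf2r value is that of 1424112_at, and the second Igf2r probe set was not part of this test. When the mean of a gene's probe sets took the place of the brightest, r was 0.83 (adjusted p = 0.0018 by permutation).

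The next pairs did not pass. Igf1 and Igfbp5 had r = 0.61 (permutation p = 0.00636, adjusted p = 0.143; rho = 0.62), with r = 0.49 without the 2 farthest arrays. Igf2 had r = 0.51 with Igfbp4 (adjusted p = 0.280; rho = 0.55), r = 0.48 with Igfbp2 (adjusted p = 0.280; rho = 0.46) and r = 0.40 with Igfbp7 (adjusted p = 0.519; rho = 0.32), all by permutation over 20 arrays. Igfbp6, the member that was higher, had r between −0.35 and 0.01 with every other member.

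Each member was also set against the mean signals of 4 marker lists and the 3′ minus 5′ signal, 50 relations in all, none of which passed after adjustment and 6 of which had an unadjusted p under 0.05. Igf2 had r = 0.68 with the 12 meningeal and fibroblast markers (adjusted p = 0.106 by permutation), 0.81 within WT and 0.36 within HDAC4 KO arrays. Igfbp2 had r = 0.58 with the same list (adjusted p = 0.106), 0.57 within WT and 0.71 within HDAC4 KO arrays. With the choroid plexus list Igfbp2 had r = 0.53 (adjusted p = 0.356), or 0.45 when Kcne2 was left out of the list. With the endothelial and mural list Igfbp7 had r = 0.48, Igf2 had r = 0.45 and Igf1r had r = −0.49 (adjusted p = 0.356 for each, by permutation). Within WT and within HDAC4 KO arrays r was 0.60 and 0.40 for Igfbp7, and 0.41 and 0.56 for Igf2. For Igf1r it was 0.08 and −0.78, and without the 2 farthest arrays r was −0.28. With the 3′ minus 5′ signal r lay between −0.31 (Igfbp7) and 0.27 (Igfbp3).

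**Figure D4:**
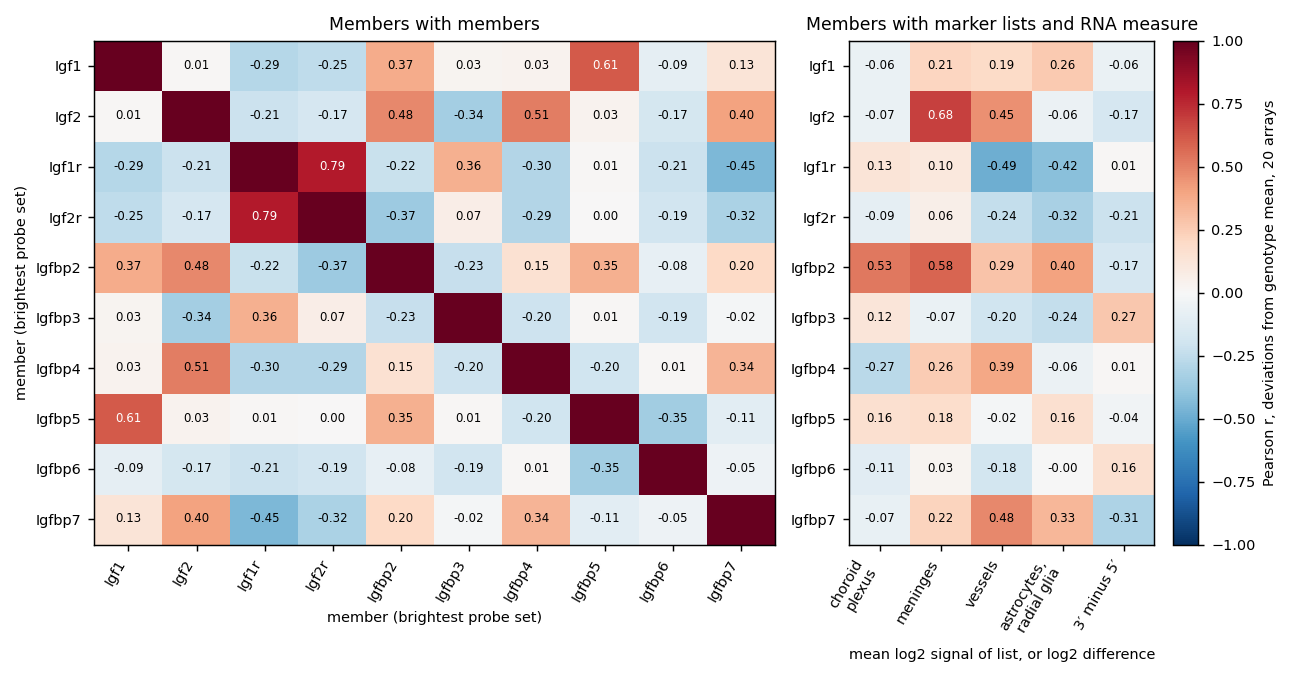
Pearson r over 20 arrays, after removal of the genotype means, among the 10 members (left, diagonal left blank of values) and between members and 4 marker lists or the 3′ minus 5′ control signal (right). Blue is negative and red positive; Igf1r with Igf2r (0.79) is the only pair with an adjusted p under 0.05, and Igf2 with meningeal markers (0.68) is the strongest relation on the right.

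The genes whose pattern across arrays was most like that of each member were named by the highest r of deviations from the genotype mean, over 20 arrays and among 11577 genes. These values are the extremes of many and carry no test. For Igf2 they were Fmod (0.85), a small proteoglycan of fibrous tissue, Thbd (0.81), the thrombomodulin of vessel walls, and Brcc3 (0.75). For Igfbp2 they were Ecrg4 (0.83) and Aqp1 (0.78), both strongly expressed in choroid plexus, and Serpinh1 (0.80), a chaperone of collagen. For Igf1r they were Nr2f2 (0.90), Zbtb20 (0.90) and Kmt2a (0.89), and for Igf2r they were Srrm2 (0.97), Prrc2c (0.96) and Mdga2 (0.95). Both receptors therefore had closer companions among other genes than each other.

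For Igf1 the most alike were Cdhr1 (0.81), a cadherin of photoreceptors and olfactory bulb output neurons, Pcbp3 (0.81) and Ntn4 (0.79), a netrin. For Igfbp5 they were Rps27l (0.75), Kif4 (0.74) and Eomes (0.74), the last a factor of intermediate progenitors and of olfactory bulb output neurons. For Igfbp6 they were Efnb3 (0.78), Kif2a (0.74) and Slc11a2 (0.72). For Igfbp3 they were Rfc3 (0.85), Polr3gl (0.82) and Rbm12b2 (0.81), for Igfbp4 Slc16a7 (0.81), Hcn3 (0.80) and Drp2 (0.80), and for Igfbp7 Bdh1 (0.83), Kif1c (0.83) and Cmbl (0.82).

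**Figure D5:**
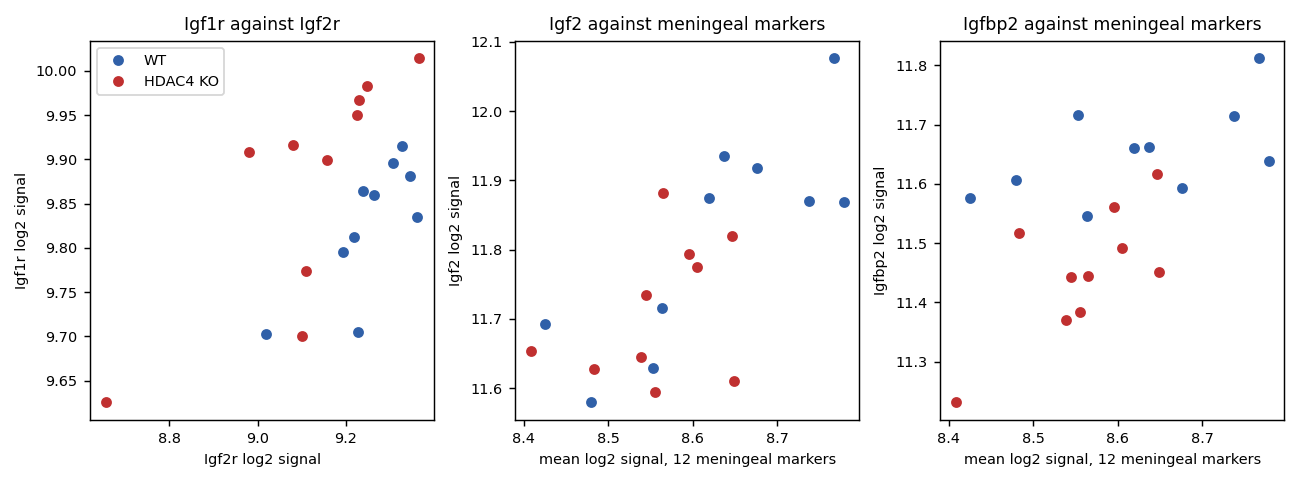
Log2 signals by array, WT in blue and HDAC4 KO in red: Igf1r against Igf2r, Igf2 against the mean of 12 meningeal and fibroblast markers, and Igfbp2 against the same mean. Axes do not start at 0. The array at the lower left of the first panel is HDAC4 KO replicate 10 (8.66 and 9.63). In the third panel 8 of 10 HDAC4 KO arrays lie under every WT array in Igfbp2 signal.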

How the data were processed

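Whole-brain RNA of 10 WT and 10 HDAC4 KO pups was hybridised, 1 brain per Affymetrix array. The authors made biotin-labelled cRNA from 200 ng with a 3′ IVT kit and excluded chips by a limit on their median normalised unscaled standard error. Values deposited by the authors are log2 signals, 1 per probe set and array, with array medians between 6.26 and 6.32. For the summary and normalisation of signals, the steps are not given in the sources used here. Since probes lie near the 3′ end and several probe sets can stand for 1 gene, their values can differ.

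Of 45101 probe sets, 64 controls were left out. Of the 45037 tested, 34945 carried 1 symbol, 932 several and 9160 none, in GEO's platform annotation. The comparison of genotypes used limma 3.58.1 (lmFit, eBayes; R 4.3.3) with Benjamini-Hochberg adjustment over all of them and no covariate. Co-variation was computed in Python 3.11.15 with scipy 1.17.1 and numpy 2.4.6. Promoter windows came from RefSeq, and the deposited files name no genome build. Scripts were tested on simulated data.

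The members, lists and tests were chosen with earlier results of these data known. All members were named at all probe sets, as were the 3 genes most like each and, of each pathway list, those called and up to 2 with the smallest p. Akt1, Inpp5d, Insr and Igfbp1, members of those lists, were named after their values were seen. Alternatives changed the test, normalisation, filter on dim probe sets, covariates (labelled sex, 3′ minus 5′ signal, 3 marker lists), replicate block, array weights and arrays used; the choroid plexus list without Kcne2 was added after seeing the data.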

Additional observations from a re-analysis of the deposited data

Results flagged for a closer look

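In groups of 10 arrays, 56 groups (28 probe sets in 2 genotypes) were examined for an array that lay far from the others by Dixon's criterion, which chance meets in about 1 of 20 groups, and 3 groups met it. For Igfbp6, HDAC4 KO replicate 1 had the lowest log2 signal of its group, 5.52, against 6.01 for the nearest array, and without it the log2 fold change of Igfbp6 was 0.57 (adjusted p = 0.0152 from limma). For Igf2r 1424112_at, WT replicate 9 was lowest at 9.02, against 9.19 for the nearest array, and it is an array whose sex-linked genes went against the label. For Igfbp7 1423585_at, a dim probe set, WT replicate 6 was lowest at 4.47, against 4.71. The cause of these values was not tested.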

How the results depend on the processing

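Results were recomputed under the alternatives listed for each: those for the interaction with sex changed the eBayes setting, normalisation and arrays used, and those for co-variation the normalisation, arrays, probe set and correlation measure. Dim probe sets have no value in the fit that leaves them out. The count of member probe sets called higher, 1 (Igfbp6), became 0 under the t-test of the methods, with the replicate block, without the 3 arrays against their sex label, and with a covariate for the 3′ minus 5′ signal or for the meningeal, choroid plexus (also without Kcne2) or endothelial markers. It ran from 0 to 1 with single arrays left out. With dim probe sets left out Igfbp6 was not tested, and Igf2r 1424111_at was called higher instead (0.13, adjusted p = 0.0457). The count called lower, 1 (Igfbp2), became 2 with dim probe sets left out, when Igfbp4 1421991_a_at joined it (adjusted p = 0.0388). It became 0 with the 3′ minus 5′, meningeal or choroid plexus covariates (also without Kcne2), and ran from 1 to 3 with single arrays left out, 3 being without WT replicate 10. All probe sets called numbered 927 in the main comparison, 18 with the choroid plexus, 17 with that list without Kcne2, 43 with the 3′ minus 5′, 148 with the meningeal and 583 with the endothelial covariate, and 351 to 1715 with 1 array left out. The cause of these losses was not tested.

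Pathway genes called higher, 1 (Foxo3), became 3 with dim probe sets left out (with Eif4ebp1 and Foxo1), 2 with array weights (with Eif4ebp1), and 0 with the 3′ minus 5′ or choroid plexus covariates (also without Kcne2) or the mean of a gene's probe sets. They ran from 1 to 3 with single arrays left out, 3 being without HDAC4 KO replicate 2. Member pairs past the threshold, 1, became 3 with the mean of a gene's probe sets, Igf1r with Igf2r among them. Such pairs numbered 0 without the 3 arrays or without WT replicate 8 and HDAC4 KO replicate 10, whose signals lay between the genotypes. They ran from 0 (without HDAC4 KO replicate 10) to 2 (without WT replicate 7, with Igf1 and Igfbp5). Relations with markers, 0, ran from 0 to 1 (Igf2 with the meningeal list, without HDAC4 KO replicate 4, adjusted p = 0.0380 by permutation).

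The replicate numbers are shared by the genotypes, but 1 of 10 pairs had a correlation of deviations above 0.1 (−0.149 to 0.162) and 1 of 10 WT arrays correlated best with its own number, so the arrays share only a number. With the replicate block 948 probe sets were called, and Igfbp6 had an adjusted p of 0.0579 and Igfbp2 of 0.0346.

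Direction turned only for probe sets that were not called, with main values between −0.02 and 0.04 except for Igf1 1419519_at (−0.10). Under quantile normalisation the log2 fold change was −0.00533 for Igf1 1437401_at, −0.00209 for Igfbp4 1423756_s_at and −0.00704 for Igfbp4 1423757_x_at. With the choroid plexus covariate it was 0.00474 for Igf1 1419519_at, −0.00504 for Igf1 1437401_at, −0.00876 for Igfbp4 1421992_a_at, −0.0339 for Igfbp4 1423756_s_at, −0.0386 for Igfbp4 1423757_x_at and 0.0428 for Igf2bp3. Without Kcne2 in that list it was −0.0422 for Igf1 1437401_at, −0.0113 and −0.0186 for these last Igfbp4 probe sets and 0.0542 for Igf2bp3. With the 3′ minus 5′ covariate it was −0.0130 and −0.00384 for the same Igfbp4 probe sets, 0.0177 for Igf1r 1452108_at and 0.00144 for Igf2bp3, and with the endothelial covariate 0.00369 for Igf1r 1452108_at. Array weights gave −0.00697 and −0.00222 for the same Igfbp4 probe sets. Without the 3 arrays they had −0.0190 and −0.00916, and Igf1 1437401_at had −0.0232. Without the 2 arrays between the genotypes they had −0.0137 and −0.00502, and Igf1r 1426565_at had 0.00259. With single arrays left out the ranges were −0.0146 to 0.0321 (Igf1 1437401_at), −0.0123 to 0.0272 (Igfbp4 1423756_s_at), −0.00712 to 0.0256 (Igfbp4 1423757_x_at), −0.0374 to 0.00924 (Igf1r 1426565_at), −0.0630 to 0.0268 (Igf1r 1452108_at) and −0.0339 to 0.0151 (Igf2bp3). Dim probe sets limit what can be said of Igfbp6, the second Igf2 probe set and the dim ones of Igf1r and Igfbp7.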
